A study of Mus musculus with 40 samples.

Results

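The genes described here are 34 genes of the endoplasmic reticulum (ER) chaperone system and the unfolded protein response, listed by symbol for their known roles, with earlier results of these data known, of 23420 gene symbols counted in each library. Proteins that enter the secretory pathway fold in the ER with the help of chaperones and of enzymes that join cysteines, and misfolded ones are carried back to the cytosol and degraded. When unfolded protein builds up, the sensors Ern1, Eif2ak3 and Atf6 signal to the nucleus: Ern1 splices the message of Xbp1, Atf6 is cut to release a transcription factor, and Eif2ak3 slows translation while the translation of Atf4 goes up. In heart muscle the ER lumen is continuous with the calcium store of the sarcoplasmic reticulum, and calreticulin and other lumenal chaperones bind calcium.

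RNA was measured in coronal slices of 20 mouse hearts of the FVB/N strain, with the right ventricle removed. The hearts came from non-transgenic mice (ntg) or from mice with a transgene that overexpresses miR-378a (TG), after a sham operation or after 2 weeks of transverse aortic constriction (TAC), a surgical narrowing of the aorta that overloads the left ventricle. Each genotype gave 3 hearts after sham and 7 after TAC, all male and 12 weeks old in the sample labels, and each was sequenced both for its polyadenylated RNA (mRNA) and for the RNA bound to Ago2, the protein that carries microRNAs to their targets (RISC). The promoter and the line of the transgene are not given in the sources used here, the microRNA itself was not measured here, and the headers of the authors' tables for all libraries call the sham hearts unoperated.

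Each mRNA library held 9980462 to 25456906 counts on genes. Each RISC library held 7550054 to 25366924 counts, and 3485745 to 10638644 counts without the ribosomal RNA gene Rn45s, which took 48.5% to 62.3%. The 34 genes together held 23795 to 60723 counts in an mRNA library and 8146 to 25487 in a RISC library. Values below are CPM, the counts of a gene per 1000000 counts of the library after scaling, and a gene was called where edgeR's quasi-likelihood test gave a Benjamini-Hochberg adjusted p under 0.05 over all genes tested. Expression of 8 cardiomyocyte markers was high in every mRNA library, with a summed level of 79753 to 113490 CPM, whereas 6 markers of plasma cells, which are rich in ER, summed to 2.54 to 13.7 CPM. In mRNA, Xist ranged from 117 to 142 CPM over the 6 sham hearts and from 1.03 to 3.48 CPM over the 14 TAC hearts, and the sum of 4 Y-linked genes was 0.216 to 4.88 CPM in sham and 79.9 to 122 CPM in TAC, although the labels give all animals as male. Every difference between TAC and sham below therefore cannot be told apart from whatever separates these animals.

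Promoters of the members are shown first because the ER stress response element, to which ATF6 and XBP1 bind, is the sequence by which this gene family is known. RefSeq windows of 250 bases before to 50 bases after the start site (build GRCm38.p6) were matched for 30 of the 34 genes (Ero1l under its newer symbol Ero1a), and not for Hyou1, Manf, Derl1 and Atf6. Both strands were searched, and capitals mark the matches. The ER stress response element, which is CCAAT, any 9 bases and CCACG, stood in the windows of 9 of the 30 genes (30.0%) and in 39 of 32851 windows of all genes (0.119%). Its second form, which is ATTGG, any 1 base and CCACG, stood in 2 of the 30, Dnajb11 and Herpud1, and in 0.0365% of all windows. The C/EBP-ATF element TGATGNAA, which ATF4 and its partners bind, stood in 5 of the 30 (16.7%), namely Asns, Atf3, Chac1, Herpud1 and Trib3, and in 3.97% of all windows. No 2 of these matches overlapped. A match is a description of the letters in the window and was not tested as a binding site.

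The first 4 sequences belong to chaperone genes that were lower in TAC hearts in the comparisons below. Hspa5 lies on the plus strand (chr2:34771840-34772139), Hsp90b1 on the minus strand (chr10:86705395-86705694), Calr on the minus strand (chr8:84846882-84847181) and Canx on the minus strand (chr11:50325624-50325923), and each is printed 5′ to 3′ on the strand of the gene, with the ER stress response element in capitals.
Hspa5: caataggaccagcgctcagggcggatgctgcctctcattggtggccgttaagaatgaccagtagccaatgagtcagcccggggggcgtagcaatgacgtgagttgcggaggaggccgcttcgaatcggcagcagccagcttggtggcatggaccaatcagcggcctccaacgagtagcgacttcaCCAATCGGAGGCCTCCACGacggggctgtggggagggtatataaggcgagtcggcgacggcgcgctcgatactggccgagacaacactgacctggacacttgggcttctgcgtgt
Hsp90b1: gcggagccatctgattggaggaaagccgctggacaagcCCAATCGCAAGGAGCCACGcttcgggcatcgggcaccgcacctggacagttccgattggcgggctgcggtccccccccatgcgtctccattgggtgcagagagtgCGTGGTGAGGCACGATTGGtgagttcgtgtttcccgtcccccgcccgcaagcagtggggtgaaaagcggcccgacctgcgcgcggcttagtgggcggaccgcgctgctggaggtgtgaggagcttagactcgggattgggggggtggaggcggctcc
Calr: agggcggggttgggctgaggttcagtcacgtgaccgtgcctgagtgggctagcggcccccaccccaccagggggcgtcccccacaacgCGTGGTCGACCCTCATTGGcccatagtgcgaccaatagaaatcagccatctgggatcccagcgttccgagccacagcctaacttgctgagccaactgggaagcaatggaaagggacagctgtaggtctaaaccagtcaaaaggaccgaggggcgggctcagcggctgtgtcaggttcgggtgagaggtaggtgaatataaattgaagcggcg
Canx: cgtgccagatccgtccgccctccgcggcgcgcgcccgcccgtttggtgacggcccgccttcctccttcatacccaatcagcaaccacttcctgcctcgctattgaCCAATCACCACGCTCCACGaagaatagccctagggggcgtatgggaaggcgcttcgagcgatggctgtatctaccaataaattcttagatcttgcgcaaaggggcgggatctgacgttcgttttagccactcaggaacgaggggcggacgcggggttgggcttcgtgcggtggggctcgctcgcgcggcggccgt

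The other 2 sequences belong to the genes that were called lower in TG sham hearts in both mRNA and RISC. Herpud1 lies on the plus strand (chr8:94386179-94386478) and carries both the C/EBP-ATF element, read on the opposite strand, and the second form of the ER stress response element. Chac1 lies on the plus strand (chr2:119350992-119351291) and carries the C/EBP-ATF element on the opposite strand.
Herpud1: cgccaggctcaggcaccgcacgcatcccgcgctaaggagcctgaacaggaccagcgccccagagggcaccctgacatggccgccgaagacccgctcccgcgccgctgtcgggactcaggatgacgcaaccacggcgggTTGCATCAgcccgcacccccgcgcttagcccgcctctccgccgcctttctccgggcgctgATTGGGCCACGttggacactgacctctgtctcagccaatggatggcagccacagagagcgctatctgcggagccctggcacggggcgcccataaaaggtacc
Chac1: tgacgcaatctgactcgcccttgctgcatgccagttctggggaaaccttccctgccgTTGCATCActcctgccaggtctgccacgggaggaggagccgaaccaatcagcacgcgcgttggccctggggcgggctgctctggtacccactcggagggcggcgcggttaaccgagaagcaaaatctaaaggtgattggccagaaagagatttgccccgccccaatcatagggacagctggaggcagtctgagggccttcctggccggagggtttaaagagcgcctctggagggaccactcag

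**Figure D1:**
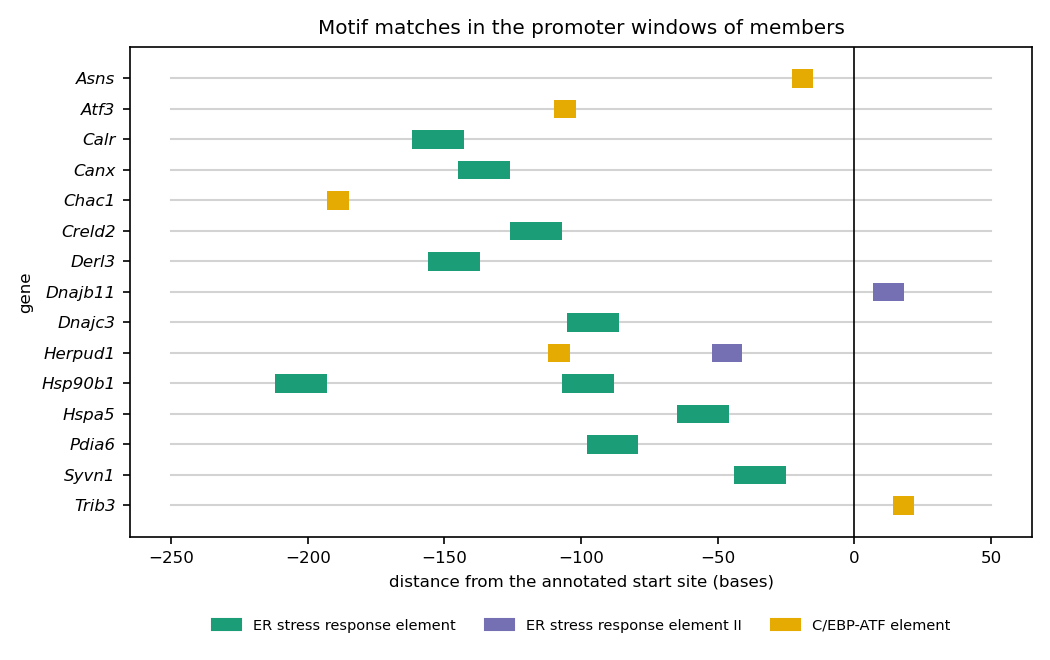
Positions of motif matches in the 15 members that had at least 1, as the distance in bases from the annotated start site, which is the base at 0 (grey lines, the windows searched). The ER stress response elements (green, purple) stood before the start site in every member shown with one except Dnajb11, and Hsp90b1 held 2 of them.

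Of the 34 genes, 33 had enough counts to be tested in both kinds of library. Derl3, a derlin of the degradation channel that secretory cells express, was at 0 to 0.601 CPM in mRNA and 0 to 0.332 CPM in RISC and was not tested. In ntg sham mRNA the order of levels per length of exon began with Herpud1 at 172 ± 33.6 CPM per kb (SD, n = 3), followed by Calr at 149 ± 4.61 and Hspa5 at 88.6 ± 18.1. Herpud1 and Calr differed by less than the spread of Herpud1, and Hspa5 did not stand apart from Canx at 76.4 ± 7.22 CPM per kb. The stress sensors were lower, with Atf6 at 17.96 ± 0.653, Ern1 at 6.23 ± 0.968 and Eif2ak3 at 2.34 ± 0.0102 CPM per kb, and Asns at 1.27 ± 0.274 CPM per kb was the lowest of the tested genes. TG sham replicate 3 had the highest mRNA level of its group for 27 of the 33 genes. It had the highest of all 20 libraries for 15. Its RISC library was the highest of its group for 21. These counts were not made over all genes, so they do not show whether this heart was high for these genes in particular.

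**Figure D2:**
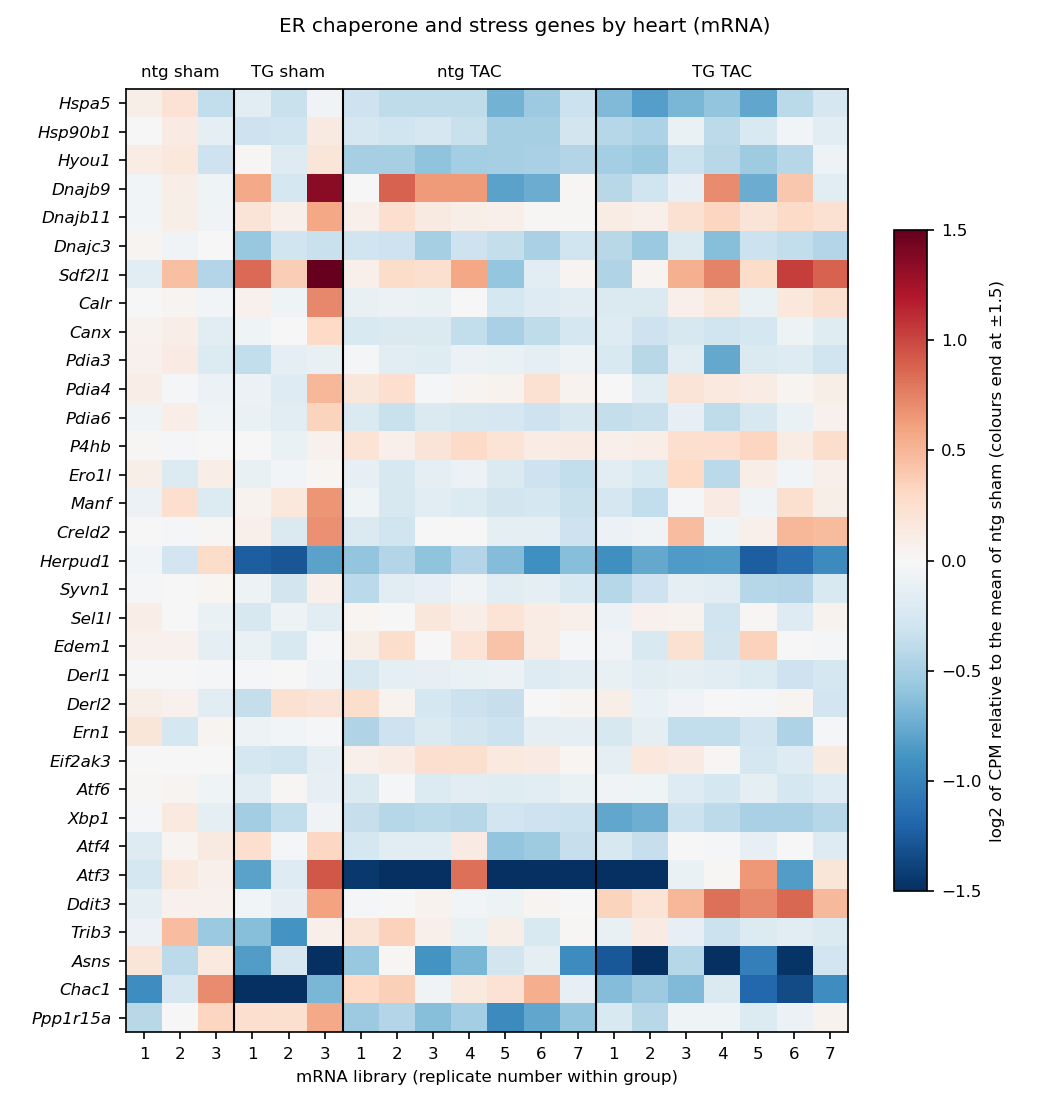
Log2 of the mRNA level (CPM) of the 33 tested members in each of 20 hearts relative to the mean of the 3 ntg sham hearts, with 0.1 CPM added to both (rows, genes by role; columns, hearts by group). Herpud1 is lower than the ntg sham mean in every heart of the other 3 groups, and the column of TG sham replicate 3 is red for most genes.

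The comparison of TG with ntg sham hearts asks what the transgene did at rest. Herpud1, a membrane protein of the ER-associated degradation complex, was at 0.470 times its ntg level in mRNA (chr8:94386500-94395358, plus strand, mm10), and Chac1, an enzyme that breaks down glutathione, and Dnajc3, a J-protein partner of Hspa5, were also lower. None of the lumenal chaperones, lectin chaperones, disulphide enzymes or stress sensors passed the test apart from Dnajc3, although Dnajb11, a J-protein partner of Hspa5, was just short of it at 0.30 higher (SE 0.10, adjusted p = 0.0512) and was called higher under 5 alternatives. In mRNA 3 of 33 genes were called, all lower, against 18.6% of the 14141 genes tested called in either direction and 9.41% called lower. The median log2 fold change of the 33 genes was -0.02, beside -0.01 over all genes.

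Herpud1 mRNA was at 313, 263 and 388 CPM in the 3 ntg sham hearts and at 137, 132 and 185 CPM in the 3 TG sham hearts. The groups did not overlap, and every TG heart was below every ntg heart. Herpud1 fell by 1.09 on the log2 scale (SE 0.15, adjusted p = 1.63e-05), and this was called under each of the 12 alternatives run.

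Chac1 is a target of ATF4 and was low in all hearts. Its mRNA was at 2.11, 3.45 and 6.78 CPM in ntg sham and at 0.936, 1.06 and 2.52 CPM in TG sham hearts, so the groups overlapped by TG sham replicate 3. Chac1 fell by 1.54 (SE 0.39, adjusted p = 0.00739), a call that was lost without ntg sham replicate 3 (-0.95, adjusted p = 0.104) or without TG sham replicate 1 (-1.26, adjusted p = 0.0520). Dnajc3 was at 48.7, 45.8 and 47.6 CPM in ntg sham and 32.0, 38.5 and 37.6 CPM in TG sham, with no overlap. It fell by 0.40 (SE 0.10, adjusted p = 0.00700), and was not called without TG sham replicate 1 (-0.31, adjusted p = 0.0519).

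The remaining members scattered around no difference or missed the threshold. Sdf2l1, a cofactor of ER J-proteins, was 1.08 higher on the log2 scale (SE 0.38, adjusted p = 0.0539), with TG sham replicate 3 at 8.09 CPM, beside 4.57 and 3.24 CPM in the other TG sham hearts and 1.81 to 3.45 CPM in ntg sham. Xbp1, the transcription factor of the Ern1 arm, was at 47.4, 53.4 and 43.9 CPM after sham in ntg and 33.5, 37.5 and 46.4 CPM in TG (-0.31 on the log2 scale, adjusted p = 0.0684). With DESeq2 5 members were called, where 2764 of 14141 genes were. The added ones were higher in TG, Dnajb11 at 0.30 (adjusted p = 0.0398) and Sdf2l1 at 1.09 (adjusted p = 0.0224). Without TG sham replicate 2, 6 members were called, where 2592 of 14303 genes were. The 3 added ones were again higher: Calr at 0.43 (adjusted p = 0.0442), Dnajb11 at 0.39 (adjusted p = 0.0131) and Sdf2l1 at 1.33 (adjusted p = 0.0206). Dnajb11 was also called without TG sham replicate 1 (0.35, adjusted p = 0.0465), Sdf2l1 without ntg sham replicate 2 (1.37, adjusted p = 0.0407) and Ppp1r15a without ntg sham replicate 3 (0.55, adjusted p = 0.0160). Without TG sham replicate 3, 5 members were called, all lower in TG, where 1942 of 14318 genes were called, 962 of them lower. These members were Herpud1, Chac1 and Dnajc3 as before, Xbp1 at -0.44 (adjusted p = 0.0140) and Trib3, a pseudokinase that ATF4 and Ddit3 induce, at -0.76 (adjusted p = 0.0310). The groups did not overlap for 3 of the 33 genes, all lower in TG, against 34.6% of all genes in either direction.

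Herpud1 and Chac1 were also lower in the Ago2-bound RNA of TG sham hearts. In RISC 2 of 33 genes were called, both lower in TG, against 5.81% of 13451 genes tested in either direction and 3.1% lower. Herpud1 was at 112, 89.6 and 139.5 CPM in ntg sham and 52.6, 52.3 and 67.1 CPM in TG sham, with no overlap, and fell by 0.99 (SE 0.15, adjusted p = 4.08e-05). Chac1 was at 1.32, 0.969 and 3.19 CPM in ntg sham and 0.0551, 0.445 and 0.806 CPM in TG sham, and fell by 2.05 (SE 0.53, adjusted p = 0.0137). The call of Chac1 was lost without ntg sham replicate 3 (-1.34, adjusted p = 0.227), TG sham replicate 1 (-1.55, adjusted p = 0.0962) or TG sham replicate 2 (-2.05, adjusted p = 0.0529). The groups did not overlap for 3 genes, Herpud1, Chac1 and Syvn1, against 25.4% of all genes in either direction.

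The summed mRNA level of 10 adipocyte markers moved with this comparison, at 294 to 386 CPM in ntg sham and 24.5 to 52.2 CPM in TG sham hearts, with none of the 10 at 0 counts in either group. The 8 cardiomyocyte markers summed to 106210 to 113490 CPM in ntg sham and 80860 to 97271 CPM in TG sham, with 4 called lower. The 5 smooth muscle markers summed to 563 to 735 CPM and 388.5 to 413 CPM, with 1 called lower. Fibroblast and endothelial sums were also lower in TG with no overlap, and macrophage sums overlapped. The part of these other cell types was not tested. With the adipocyte level as a covariate Herpud1 was called at -1.09 (adjusted p = 0.00335), while Chac1 at -1.53 (adjusted p = 0.0946) and Dnajc3 at -0.32 (adjusted p = 0.213) were not. That level, a mean of log2 CPM, was 4.16 to 4.42 in ntg sham and 0.631 to 1.52 in TG sham libraries. As these do not overlap, that fit cannot tell the level apart from the genotype. Chac1 was also not called with only the 2 groups compared (-1.54, adjusted p = 0.0810). In bulk tissue, fewer cells of a type and less RNA per cell cannot be told apart.

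**Figure D3:**
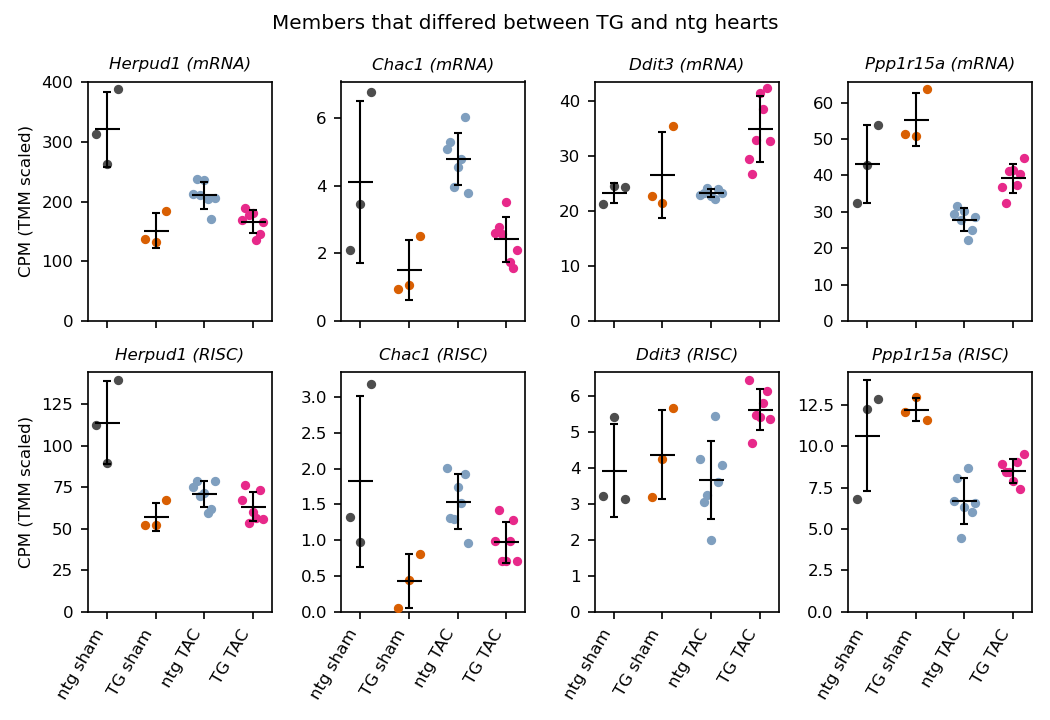
Levels (CPM, linear axis from 0) of Herpud1, Chac1, Ddit3 and Ppp1r15a in each heart by group, in mRNA (top) and RISC (bottom), with mean ± SD (n = 3, 3, 7 and 7). Herpud1 is lowest in TG hearts after sham, whereas Ddit3 mRNA reaches 26.8 to 42.4 CPM in TG TAC hearts and stays at 22.1 to 24.1 CPM in ntg TAC hearts.

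The comparison of TG with ntg TAC hearts asks what the transgene did under overload. Ddit3, the transcription factor CHOP that acts late in ER stress, and Ppp1r15a, the phosphatase subunit that reverses the block of translation, were higher in TG TAC than in ntg TAC hearts, as was Creld2, a small secreted ER stress protein. Chac1 and Herpud1 were lower in TG, as they were at rest. In mRNA 3 genes were called higher and 2 lower of 33, against 25.3% of all genes called in either direction (13.5% higher and 11.8% lower), and the groups did not overlap for 3 of 33, against 8.11% of all genes. The median log2 fold change of the 33 genes was -0.00049, beside -0.0040 over all genes.

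Ddit3 mRNA was at 22.1 to 24.1 CPM in the 7 ntg TAC hearts (median 23.3) and at 26.8 to 42.4 CPM in the 7 TG TAC hearts (median 32.9). Every TG heart was above every ntg heart, and Ddit3 rose by 0.59 (SE 0.10, adjusted p = 0.000226). The exons of Ddit3 overlap those of Mars on the opposite strand and the libraries keep no strand, so reads of the pair cannot be told apart there. Reads counted as ambiguous were left out, but the counting settings are not given.

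Ppp1r15a mRNA was at 22.2 to 31.7 CPM in ntg TAC (median 28.6) and 32.3 to 44.7 CPM in TG TAC (median 40.5). The groups did not overlap, and Ppp1r15a rose by 0.49 (SE 0.10, adjusted p = 0.000651). Chac1 mRNA was at 3.78 to 6.05 CPM in ntg TAC (median 4.79) and 1.56 to 3.53 CPM in TG TAC (median 2.57), again with no overlap. It fell by 0.98 (SE 0.22, adjusted p = 0.00202). These targets of the Atf4 arm thus moved in opposite directions in the same hearts.

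Herpud1 mRNA was at 170 to 237 CPM in ntg TAC (median 211) and 136 to 189 CPM in TG TAC (median 169). The groups overlapped, and Herpud1 fell by 0.34 (SE 0.10, adjusted p = 0.0105). Creld2 was at 9.57 to 12.0 CPM in ntg TAC (median 10.8) and 11.2 to 16.8 CPM in TG TAC (median 12.6), with overlap, and rose by 0.36 (SE 0.12, adjusted p = 0.0330). Of the 20 alternatives, Creld2 was called under 12 and lost its call when any of 8 single hearts was left out (ntg TAC replicates 1, 2, 5, 6 and 7, TG TAC replicates 3, 6 and 7), at 0.31 to 0.36 with an adjusted p of at most 0.0799. The other 4 genes were called under all 20.

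The upstream factors of these targets were not called in TG against ntg TAC hearts with all hearts in the fit. Atf4 mRNA was at 44.4 to 72.9 CPM in ntg TAC (median 55.9) and 52.6 to 66.6 CPM in TG TAC (median 61.5), which is 0.13 on the log2 scale (adjusted p = 0.344). Atf3, an early stress factor, ranged most widely, at 2.00 to 20.9 CPM in ntg TAC (median 3.41) and 2.38 to 18.5 CPM in TG TAC (median 11.0). Its log2 fold change of 0.73 had an SE of 0.57 (adjusted p = 0.379). Without ntg TAC replicate 4, the heart at 20.9 CPM, Atf3 was called higher in TG at 1.62 (SE 0.47, adjusted p = 0.0197). Hspa5, the master chaperone, was at -0.16 on the log2 scale (SE 0.09, adjusted p = 0.227). Cell type markers also differed here. The 8 endothelial markers summed to 1235 to 1318 CPM in ntg TAC and 1092 to 1174 CPM in TG TAC mRNA, with 5 called lower. Of 9 macrophage markers 5 were called lower in TG. Cardiomyocyte sums overlapped, with 1 of 8 markers called higher and 1 lower. The part of these cell types was not tested.

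In RISC 1 gene was called higher and 2 lower of 33 in TG against ntg TAC hearts, against 15.2% of all genes in either direction (7.78% higher and 7.46% lower). Ddit3 was at 2.00 to 5.44 CPM in ntg TAC (median 3.61) and 4.68 to 6.42 CPM in TG TAC (median 5.45), and rose by 0.63 (SE 0.18, adjusted p = 0.0132). Edem1, a mannosidase-like protein that picks glycoproteins for degradation, was at 33.1 to 54.0 CPM in ntg TAC (median 44.5) and 32.0 to 41.0 CPM in TG TAC (median 34.6), and fell by 0.32 (SE 0.10, adjusted p = 0.0261). Sel1l, the partner of the ubiquitin ligase Syvn1, fell by 0.22 (SE 0.07, adjusted p = 0.0419) from a median of 74.8 CPM (64.4 to 83.3) to 64.9 CPM (60.2 to 68.8). Without ntg TAC replicate 4, or TG TAC replicate 1, 3 or 6, 1 member was called, Ddit3. Over all genes 1692 of 13431, 1689 of 13414, 1594 of 13394 and 1857 of 13444 were called in these fits. In them Edem1 was at -0.31 to -0.30 (adjusted p of at most 0.0593). Edem1 was also not called without ntg TAC replicate 5, and kept its call under 15 of 21 alternatives. Sel1l kept its call under only 8 of 21, and was also not called without ntg TAC replicate 2, 3, 5 or 7 or TG TAC replicate 2, 5 or 7. All 3 called genes overlapped between groups, and none of the 33 genes had groups that did not, against 3.84% of all genes. The libraries differ in how RISC counts depend on gene length, and with that slope as a covariate none of the 33 was called. The slope was 0.0191 to 0.125 in ntg TAC and -0.106 to 0.0127 in TG TAC libraries. As these do not overlap, that fit cannot tell the slope apart from the genotype.

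**Figure D4:**
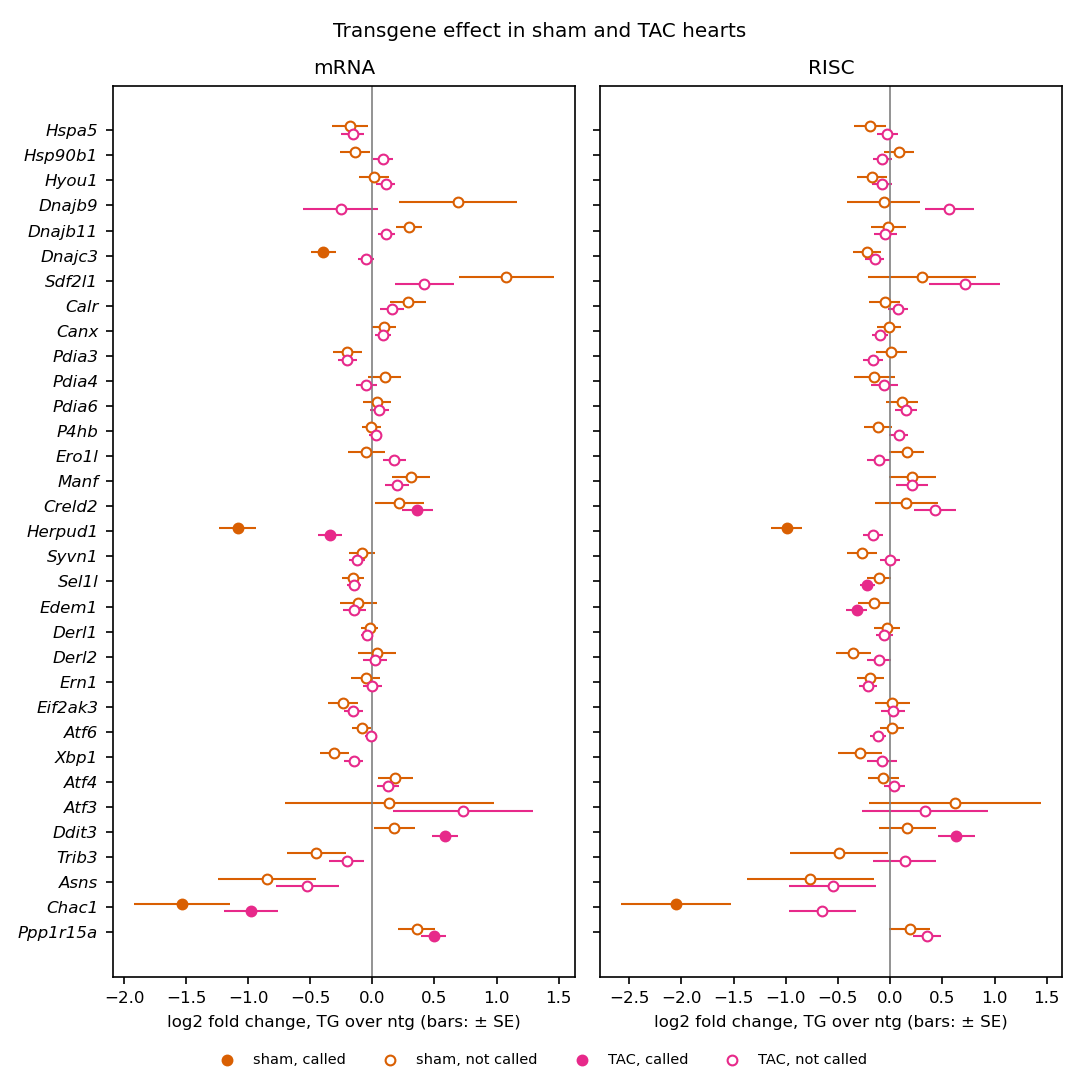
Log2 fold change of TG over ntg (± SE) for the 33 tested members in sham (orange) and TAC hearts (magenta), in mRNA (left) and RISC (right), with filled points for genes called at an adjusted p under 0.05. Herpud1 and Chac1 lie left of 0 in all 4 comparisons, and the filled points to the right of 0 are Creld2, Ddit3 and Ppp1r15a in TAC hearts.

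Whether the transgene effect differed between TAC and sham hearts was tested as an interaction. For Herpud1 it did in RISC: the fold change was 0.83 higher on the log2 scale under TAC than at rest (SE 0.18, adjusted p = 0.0236), the only member called of 33, against 0.342% of all genes in either direction and 0.32% higher. This call was lost without ntg sham replicate 3 (0.65, adjusted p = 0.173), TG sham replicate 1 (0.77, adjusted p = 0.0903) or TG sham replicate 2 (0.76, adjusted p = 0.146). In mRNA the Herpud1 interaction was 0.74 (SE 0.17, adjusted p = 0.09998) and edgeR called 0 of the 33, against 0.0849% of all genes. Of the 33, 3 had an unadjusted p under 0.05 in mRNA (Herpud1, Dnajc3 and Ddit3), a count not made over all genes. DESeq2 called Herpud1 at 0.73 (adjusted p = 0.0200), among 73 of 14141 genes. Herpud1 was also called with the replicate number as a block at 0.74 (adjusted p = 0.00857), without TG sham replicate 3 at 0.91 (adjusted p = 0.0351) and without ntg sham replicate 2 at 0.87 (adjusted p = 0.0459). These fits called 16 of 14141, 16 of 14318 and 22 of 14309 genes. For Ddit3, called in TG against ntg under TAC and not at rest, the mRNA interaction was 0.41 (SE 0.20, adjusted p = 0.485), so a difference between operations was not shown.

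The comparison of TAC with sham hearts asks what differed with the operation, which cannot be told apart from whatever else separates these animals. In ntg mRNA 5 chaperone genes fell and no member was called higher: Hspa5, its nucleotide exchange factor Hyou1, Hsp90b1 (the ER member of the HSP90 family), Dnajc3 and the membrane lectin chaperone Canx were lower in ntg TAC than in ntg sham hearts, together with Herpud1, Xbp1 and Ppp1r15a. The remaining chaperones were not called, with Dnajb9 at 0.23, Sdf2l1 at 0.13, Dnajb11 at 0.10 and Calr at -0.13 on the log2 scale, and 10 of the 33 genes had a positive fold change. P4hb, at 0.18 with no overlap, was called higher with DESeq2 (adjusted p = 0.0288) and with only the 2 groups compared (adjusted p = 0.0349). In TG hearts Hspa5, Hyou1, Canx and Ppp1r15a were again lower, with Derl1 of the degradation channel, and P4hb, protein disulphide isomerase, was higher. These 2 comparisons share no heart, but each shares its sham hearts with the transgene comparison at rest and its TAC hearts with that under overload. In ntg mRNA 8 of 33 genes were called, all lower, against 17.7% of all genes in either direction and 9.31% lower. In TG mRNA 5 were called lower and 1 higher, against 13.1% of all genes in either direction (6.56% lower and 6.57% higher). The groups did not overlap for 12 of 33 genes in ntg mRNA (2 higher and 10 lower in TAC), against 20.6% of all genes in either direction, and for 4 in TG mRNA (1 higher and 3 lower), against 12.1%. The median log2 fold change of the 33 genes was -0.15 in ntg and -0.11 in TG hearts, beside -0.02 and -0.0040 over all genes.

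Hspa5 mRNA was at 247, 270 and 179 CPM in ntg sham and at 142 to 187 CPM in ntg TAC (median 178). The groups overlapped through ntg sham replicate 3, and Hspa5 fell by 0.43 (SE 0.12, adjusted p = 0.0149). In TG hearts it was at 206, 184 and 223 CPM after sham and 131 to 194 CPM after TAC (median 146), and fell by 0.40 (SE 0.12, adjusted p = 0.0270). The ntg call was lost without ntg sham replicate 1 (-0.38, adjusted p = 0.0900) or 2 (-0.31, adjusted p = 0.153).

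Hyou1 mRNA was at 76.2, 78.9 and 56.7 CPM in ntg sham and at 46.3 to 51.9 CPM in ntg TAC (median 50.01), with no overlap. It fell by 0.50 (SE 0.10, adjusted p = 0.00110). Among TG hearts it was at 71.7, 61.7 and 80.2 CPM after sham and 48.1 to 66.7 CPM after TAC (median 52.3), and fell by 0.41 (SE 0.10, adjusted p = 0.00828). Canx was at 339, 351 and 292 CPM in ntg sham and 233 to 282 CPM in ntg TAC (median 273), and fell by 0.31 (SE 0.08, adjusted p = 0.0114). In TG hearts Canx was at 314, 330 and 403 CPM after sham and 263 to 309.6 CPM after TAC (median 278), again with no overlap, and fell by 0.31 (SE 0.08, adjusted p = 0.0140).

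Hsp90b1 mRNA was at 179, 194 and 163 CPM in ntg sham and 126 to 151 CPM in ntg TAC (median 146), and fell by 0.34 (SE 0.10, adjusted p = 0.0223). Dnajc3 went from 45.8 to 48.7 CPM in ntg sham to 33.6 to 38.4 CPM in ntg TAC, and fell by 0.37 (SE 0.08, adjusted p = 0.00341). In TG hearts neither was called, with log2 fold changes of -0.11 (adjusted p = 0.510) for Hsp90b1 and -0.02 (adjusted p = 0.891) for Dnajc3. The TG sham hearts held 32.0 to 38.5 CPM of Dnajc3, as described above.

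Among the regulators, Ppp1r15a fell in both genotypes. It was at 32.3, 43.0 and 54.0 CPM in ntg sham, above every ntg TAC heart at 22.2 to 31.7 CPM, and fell by 0.63 (SE 0.13, adjusted p = 0.00127). In TG hearts it was at 51.4, 50.8 and 63.7 CPM after sham and 32.3 to 44.7 CPM after TAC, and fell by 0.49 (SE 0.12, adjusted p = 0.0102). Xbp1 mRNA was at 35.8 to 39.4 CPM in ntg TAC (median 38.0), below all 3 ntg sham hearts, and fell by 0.36 (SE 0.10, adjusted p = 0.0122). These counts join the spliced and unspliced forms of Xbp1, so splicing by Ern1 was not measured.

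Herpud1 fell by 0.61 in ntg hearts (SE 0.12, adjusted p = 0.00123), from 263 to 388 CPM after sham to 170 to 237 CPM after TAC with no overlap. In the TG genotype it stood at 0.14 on the log2 scale (SE 0.12, adjusted p = 0.501), between TG sham hearts at 132 to 185 CPM and TG TAC hearts at 136 to 189 CPM. Derl1 was at 56.1, 57.6 and 55.4 CPM in TG sham and 46.2 to 52.8 CPM in TG TAC (median 50.7), and fell by 0.17 (SE 0.06, adjusted p = 0.0426), a call lost when any of 8 hearts was left out (TG sham replicates 1, 2 and 3, TG TAC replicates 2, 3, 5, 6 and 7; -0.19 to -0.15, adjusted p of at most 0.148). P4hb was at 156, 145 and 163 CPM in TG sham and 164 to 195 CPM in TG TAC (median 185), and rose by 0.21 (SE 0.07, adjusted p = 0.0369), a call lost without TG sham replicate 1 or 2 or TG TAC replicate 3, 5 or 7 (0.17 to 0.22, adjusted p of at most 0.187). P4hb is also a subunit of the enzyme that hydroxylates collagen, and the summed level of 8 fibroblast markers was 1151 to 1215 CPM in TG sham and 1464 to 3263 CPM in TG TAC, whose part in the rise was not tested.

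The calls of the falls in TG mRNA were lost without TG sham replicate 3, the heart with high values for most of these genes, which leaves 2 TG sham hearts. Without it Hspa5 was at -0.34 (adjusted p = 0.132), Hyou1 at -0.32 (adjusted p = 0.0704), Canx at -0.20 (adjusted p = 0.153) and Ppp1r15a at -0.38 (adjusted p = 0.0811), and none of these was called. The Hspa5 call was also lost without TG sham replicate 1 or TG TAC replicate 2, 3 or 5 (-0.40 to -0.36, adjusted p of at most 0.0848). Without TG sham replicate 3 the members called were all higher in TAC: Ddit3 at 0.66 (adjusted p = 0.00352), Chac1 at 1.28 (adjusted p = 0.0349), Trib3 at 0.63 (adjusted p = 0.0494) and P4hb at 0.25 (adjusted p = 0.0415). In that fit 1319 of 14318 genes were called, 664 of them higher. Ddit3 was also called higher with DESeq2 (0.40, adjusted p = 0.0368), with the adipocyte covariate (0.41, adjusted p = 0.0490) and without TG TAC replicate 1 or 2 (adjusted p = 0.0364 and 0.0234). Called lower when 1 heart was left out were Manf (TG sham replicate 1 or TG TAC replicate 6), Pdia6 (TG TAC replicate 7) and Syvn1 (TG sham replicate 2). Without TG TAC replicate 3 or 5 there were 3 called members in each case, where 1504 of 14126 and 1532 of 14127 genes were called. In ntg mRNA leaving out ntg sham replicate 1 or 2 gave 5 called members each, where 1473 of 14308 and 1484 of 14309 genes were called. Canx was then at -0.28 and -0.25 (adjusted p = 0.0695 and 0.0960) and Hsp90b1 at -0.34 and -0.28 (adjusted p = 0.0782 and 0.146). Without replicate 2 Xbp1 was not called (-0.28, adjusted p = 0.115), and the sensor Ern1 was called lower at -0.37 (adjusted p = 0.0226). Atf3, not called with all hearts at -1.03, was called at -1.92 without ntg TAC replicate 4 (adjusted p = 0.0308), and so was Atf4 at -0.33 (adjusted p = 0.0330).

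Markers of several cell types moved with ntg TAC against sham. The summed mRNA level of 8 cardiomyocyte markers was 106210 to 113490 CPM in ntg sham and 80844 to 88697 CPM in ntg TAC, with 6 of the 8 called lower and a median log2 fold change of -0.38. That of 8 fibroblast markers was 1242.5 to 1481 CPM and 2077 to 3040 CPM, with 4 called higher, and that of 8 endothelial markers was 1045 to 1114.5 CPM and 1235 to 1318 CPM, with 4 called higher. The 10 adipocyte markers summed to 294 to 386 CPM and 35.1 to 207 CPM, with 4 called lower. With the adipocyte level as a covariate no member was called, but all 8 stayed lower, from Xbp1 at -0.30 (adjusted p = 0.227) and Dnajc3 at -0.30 (adjusted p = 0.149) to Ppp1r15a at -0.60 (adjusted p = 0.0639) and Herpud1 at -0.60 (adjusted p = 0.0534). In that fit Hspa5 was at -0.46, Hsp90b1 and Canx at -0.39 and Hyou1 at -0.36 on the log2 scale. The adipocyte level, as a mean of log2 CPM, was 4.16 to 4.42 in ntg sham and 0.109 to 3.19 in ntg TAC libraries. As these do not overlap, that fit cannot tell the level apart from the operation. The part of the cardiomyocyte, fibroblast and endothelial levels in these falls was not tested.

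**Figure D5:**
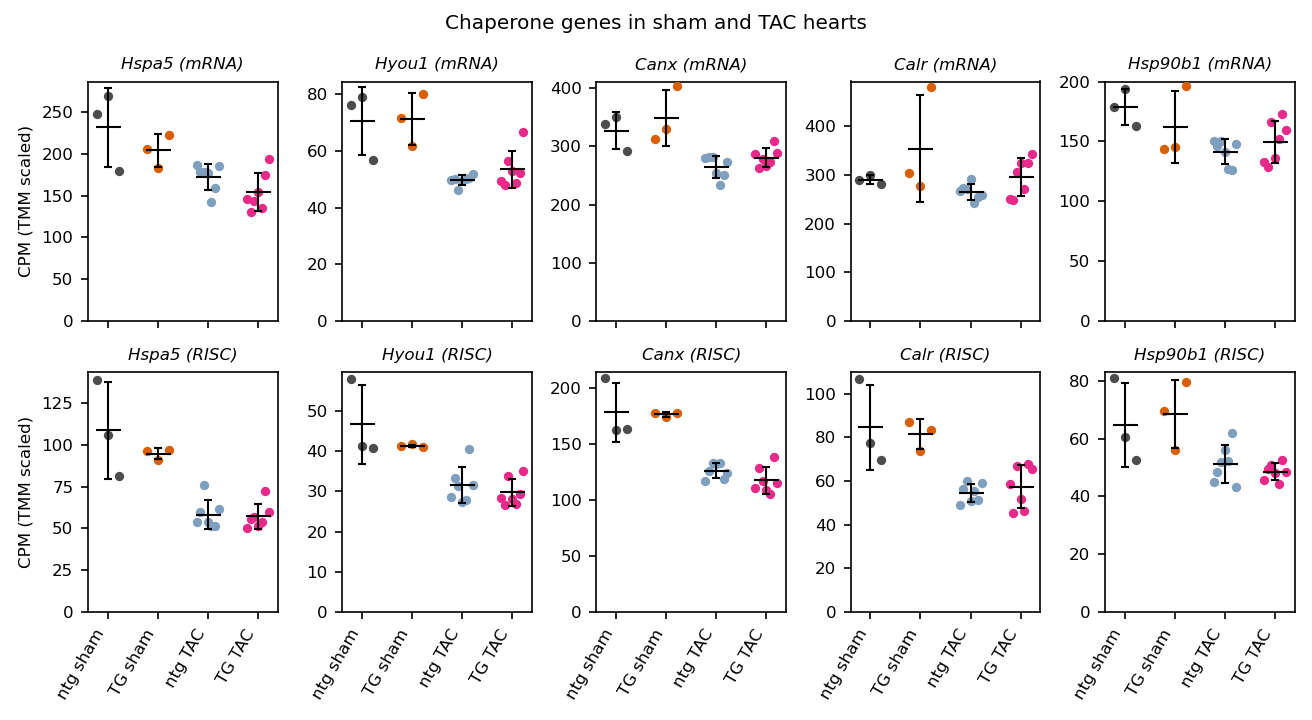
Levels (CPM, linear axis from 0) of Hspa5, Hyou1, Canx, Calr and Hsp90b1 in each heart by group, in mRNA (top) and RISC (bottom), with mean ± SD (n = 3, 3, 7 and 7). In RISC the 14 TAC hearts lie below all sham hearts of their genotype for Hspa5, Hyou1, Canx and Calr.

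In Ago2-bound RNA several chaperone genes fell with TAC in both genotypes. Hspa5, Hyou1, Canx, the soluble lectin chaperone Calr, the disulphide isomerase Pdia6 and Ppp1r15a were called lower in ntg and in TG hearts. In ntg RISC 8 genes were called lower and 1 higher of 33, against 10.9% of all genes in either direction (5.39% lower and 5.54% higher). In TG RISC 7 were called lower and none higher, against 8.56% in either direction and 3.84% lower. The groups did not overlap for 6 genes in ntg and 7 in TG RISC, all lower in TAC, against 11.1% and 12.8% of all genes in either direction and 5.35% and 5.93% lower. The median log2 fold change of the 33 genes was -0.21 in ntg and -0.02 in TG RISC, beside 0.0018 and 0.02 over all genes.

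Hspa5 RISC was at 139, 106 and 81.2 CPM in ntg sham and 51.2 to 76.3 CPM in ntg TAC (median 54.1), and fell by 0.90 (SE 0.13, adjusted p = 1.15e-05). In TG hearts it was at 96.4, 91.3 and 97.0 CPM after sham and 50.1 to 72.7 CPM after TAC (median 55.9), and fell by 0.73 (SE 0.13, adjusted p = 0.000351). Both differences were larger than the spread within groups and were called under all 17 alternatives of each comparison. Canx was at 209, 162 and 163 CPM in ntg sham and 116.5 to 133 CPM in ntg TAC (median 126), and fell by 0.50 (SE 0.09, adjusted p = 0.000562). In TG hearts Canx fell by 0.58 (SE 0.09, adjusted p = 0.000128), from 174 to 178 CPM to 105 to 138 CPM.

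Calr RISC was at 107, 77.4 and 69.7 CPM in ntg sham and 49.1 to 59.9 CPM in ntg TAC (median 55.3), and fell by 0.63 (SE 0.12, adjusted p = 0.000709). In TG hearts it fell by 0.50 (SE 0.12, adjusted p = 0.00763), from 73.7 to 87.2 CPM to 45.5 to 68.0 CPM. Calr mRNA was not called in either genotype, at -0.13 in ntg (adjusted p = 0.514) and -0.26 in TG hearts (adjusted p = 0.170). Hyou1 fell by 0.57 in ntg RISC (SE 0.12, adjusted p = 0.00154), from 40.7 to 58.1 CPM to 27.5 to 40.7 CPM, and by 0.47 in TG RISC (SE 0.12, adjusted p = 0.00911), from 41.1 to 41.7 CPM to 26.6 to 35.1 CPM.

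Pdia6 fell by 0.53 in ntg RISC (SE 0.13, adjusted p = 0.00688), from 21.4 to 32.8 CPM to 14.6 to 22.4 CPM, with overlap. In TG RISC it fell by 0.49 (SE 0.13, adjusted p = 0.0134), from 25.7 to 30.0 CPM to 17.0 to 23.9 CPM, with no overlap. Its exons overlap those of Atp6v1c2 on the opposite strand. Reads counted as ambiguous were left out, but the counting settings are not given, so its reads are not certain to be its own. Hsp90b1 was called in TG RISC, where it fell by 0.50 (SE 0.12, adjusted p = 0.00563) from 69.6, 56.2 and 79.6 CPM to 44.3 to 52.7 CPM, and in ntg RISC its log2 fold change was -0.34 (adjusted p = 0.0590). A difference between genotypes was not shown (RISC interaction -0.16, SE 0.17).

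Ppp1r15a RISC fell by 0.68 in ntg hearts (SE 0.17, adjusted p = 0.00707), from 6.82, 12.2 and 12.9 CPM to 4.46 to 8.71 CPM. In TG hearts it fell by 0.51 (SE 0.16, adjusted p = 0.0424), from 11.6 to 13.0 CPM to 7.41 to 9.54 CPM, a call lost when any of 8 hearts was left out (TG sham replicates 1, 2 and 3, TG TAC replicates 1, 3, 4, 5 and 6; adjusted p of at most 0.180). The ntg call of Ppp1r15a was lost without ntg sham replicate 2 (adjusted p = 0.0571) or 3 (adjusted p = 0.106). Herpud1 fell in ntg RISC by 0.68 (SE 0.12, adjusted p = 0.000225), from 112, 89.6 and 139.5 CPM to 59.8 to 79.0 CPM, and was at 0.14 on the log2 scale in TG RISC (adjusted p = 0.546). Atf4, the factor of the Eif2ak3 arm, was at 27.6, 23.3 and 30.6 CPM in ntg sham RISC and 15.2 to 22.5 CPM in ntg TAC RISC, and fell by 0.45 (SE 0.12, adjusted p = 0.0159). The call of Atf4 was lost without ntg sham replicate 1 (adjusted p = 0.0688) or 3 (adjusted p = 0.144). The 1 gene that was higher was Edem1, at 35.1, 34.8 and 29.7 CPM in ntg sham and 33.1 to 54.0 CPM in ntg TAC RISC, which rose by 0.42 (SE 0.13, adjusted p = 0.0375), a call lost when any of 7 hearts was left out (ntg sham replicates 1, 2 and 3, ntg TAC replicates 2, 4, 5 and 6; adjusted p of at most 0.191). With the length slope as a covariate Hspa5, Canx and Herpud1 stayed called in ntg RISC and the other 6 did not. That slope was -0.0383 to -0.0065 in ntg sham and 0.0191 to 0.125 in ntg TAC libraries, so the fit cannot tell it apart from the operation. Without ntg sham replicate 1 there were 5 members called, where 730 of 13775 genes were. Hyou1 was then at -0.39 (adjusted p = 0.0653) and Pdia6 at -0.35 (adjusted p = 0.161). Without ntg TAC replicate 4, Atf3 was called lower in ntg RISC (-2.01, adjusted p = 0.0384), and so was Hsp90b1 (-0.36, adjusted p = 0.0478). Hsp90b1 was also called lower without ntg TAC replicate 6 (adjusted p = 0.0316) or ntg sham replicate 3 (adjusted p = 0.0220). In TG RISC 4 members were called without TG sham replicate 1 (Hspa5, Hyou1, Canx and Hsp90b1), where 669 of 13702 genes were. Calr was then at -0.45 (adjusted p = 0.0569) and Pdia6 at -0.46 (adjusted p = 0.0666). Without TG sham replicate 3 Hsp90b1 was not called (-0.38, adjusted p = 0.0811).

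The change in RISC relative to that in mRNA asks whether Ago2-bound RNA moved by another amount than the message did. For the 33 genes no such difference was called: edgeR called 0 in TG against ntg sham, TG against ntg TAC, ntg TAC against sham and TG TAC against sham, where 0.244%, 0.946%, 0.0209% and 0.0278% of 14372 genes were called. At an unadjusted p under 0.05 there were 0, 1, 4 and 2 of the 33 in these comparisons, a count not made over all genes. DESeq2 called 0 of the 33 in each, where it called 121, 332, 19 and 88 of the 14372 genes. Calr in ntg TAC against sham had the lowest unadjusted p of these, with RISC 0.49 lower relative to mRNA (log2 difference -0.49, SE 0.18, adjusted p = 0.390). For Herpud1 in TG against ntg sham hearts the falls in RISC and mRNA, 0.99 and 1.09, differed by less than their errors. The main fit left out that both libraries came from the same heart. With the heart as a block 0 of the 33 were called in each comparison, where 68, 236, 0 and 34 of the 14372 genes were called.

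The level in RISC relative to that in mRNA differed between members. In ntg sham hearts Edem1 stood 2.67 above the median gene on the log2 scale of RISC over mRNA, Ero1l, the oxidase that recharges the disulphide isomerases, 1.69 above, and Dnajc3 1.26 above. At the other end Xbp1 was at -1.11 and Ddit3 at -1.45. This order followed the length of exon, with a Spearman rho of 0.667 over the 33 genes and of 0.645 over 13273 genes, given as a description because all points share the same libraries. Ago2 binding and a dependence of the libraries on length cannot be told apart in this ratio.

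Other genes of the same pathways were counted from 5 wider lists. Among 28 other ER folding factors 2 were called higher and 5 lower in TG sham mRNA and 5 higher and 4 lower in TG TAC mRNA, where 18.6% and 25.3% of all genes were called, with Tmx1, a membrane thioredoxin of the ER, higher in both, by 1.14 (SE 0.15, adjusted p = 9.18e-06) and 0.55 (SE 0.10, adjusted p = 0.000150). Tmx1 went from 25.3 ± 3.02 CPM in ntg sham to 55.8 ± 6.36 CPM in TG sham hearts (SD, n = 3). Among 16 other genes of ER-associated degradation 1 was higher and 2 lower at rest and 4 higher and 1 lower under TAC, and Erlec1, a lectin of that pathway, fell by 0.70 (SE 0.16, adjusted p = 0.00301) and 0.37 (SE 0.10, adjusted p = 0.00857). Among 18 genes of translocation into the ER 1 and 3 were called, all higher, led by the signal peptidase subunit Spcs3 at 0.65 at rest (SE 0.15, adjusted p = 0.00334). Of 16 other regulators of the response 2 were lower at rest, and 4 were higher and 2 lower under TAC. In RISC 5.81% of all genes were called at rest and 15.2% under TAC. There the folding factors had 1 higher at rest and 3 higher and 2 lower under TAC. The degradation genes had 1 higher and 2 lower under TAC, and so had the regulators, and the translocation genes had 1 lower at rest.

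Of 23 tested other targets of ATF4, 1 was called higher and 5 lower in TG sham mRNA, and 1 higher and 1 lower in TG TAC mRNA, beside the same 18.6% and 25.3% of all genes. Psat1, of serine synthesis, fell by 0.98 at rest (SE 0.32, adjusted p = 0.0358), and the stress hormone Gdf15 rose by 0.98 under TAC (SE 0.33, adjusted p = 0.0358), from 5.41 ± 2.60 to 10.5 ± 4.16 CPM (SD, n = 7). With TAC 17.7% of all genes were called in ntg and 13.1% in TG mRNA. In ntg mRNA 2 of the 23 were called higher and 2 lower, the lower ones being the amino acid transporter genes Slc7a1 at -0.71 (SE 0.11, adjusted p = 0.000117) and Slc3a2 at -0.52 (SE 0.09, adjusted p = 0.000416). In TG mRNA 4 were higher and 2 lower, with Stc2, a secreted stanniocalcin, higher by 0.80 (SE 0.11, adjusted p = 0.000123). Among the 28 folding factors 4 were higher and 1 lower with TAC in ntg mRNA and 3 higher and 2 lower in TG mRNA, and Pdia5, a disulphide isomerase, rose in both, by 0.68 (SE 0.13, adjusted p = 0.000938) and 0.61 (SE 0.13, adjusted p = 0.00364). For the degradation genes the counts were 1 higher and 1 lower in ntg and 2 higher in TG mRNA, for translocation 1 higher and 1 lower in ntg and 1 lower in TG mRNA, and for the regulators 1 higher in ntg mRNA. In RISC, where 10.9% and 8.56% of all genes were called with TAC, the folding factors had 4 lower in ntg and 1 lower in TG hearts. The translocation genes had 1 lower in ntg and 2 higher in TG, and the regulators 1 lower in each. Of 24 ATF4 targets tested in RISC, 1 was higher and 3 lower with TAC in ntg, and 4 higher and 1 lower in TG. In TG against ntg RISC, 3 of the 24 were lower at rest, and 1 was higher and 2 lower under TAC.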

How the data were processed

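Counts per gene symbol were deposited by the authors for 20 mRNA and 20 RISC libraries of the same hearts, as whole numbers without normalization. Per the submitters' processing notes the tools included TopHat2 2.0.10, Bowtie2, HTSeq, DESeq and edgeR with genome build mm10; their settings are not given in the sources used here. The authors' tables for all libraries were not used. The 5 summary rows for reads of no gene (10.1% to 15.8% of mRNA reads, 2.57% to 6.20% of RISC reads) were left out.

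The 34 members and all gene lists were chosen with earlier results of these data known. In R 4.3.3, edgeR 4.0.16 filtered genes (filterByExpr), scaled libraries by TMM and fitted the quasi-likelihood model with the 4 groups of a kind in 1 fit (14141 mRNA and 13451 RISC genes), and p-values were Benjamini-Hochberg adjusted over all genes tested. RISC was compared with mRNA in 1 fit of 40 libraries (14372 genes), with no term for the heart that gave both libraries. Fold changes are given on the log2 scale with their SE, and the biological coefficient of variation was 12.9%, 16.6% and 14.6%. CPM uses TMM library sizes, and CPM per kb divides by the union of exons. Alternatives were size factors by RLE, DESeq2 1.42.0, no filter, only the 2 groups compared, a replicate block, adipocyte level and length slope as covariates, and leaving out each heart. Levels are given for members called in at least 1 comparison and for Hspa5, Xbp1, Ddit3 and Atf4, other members by ranges and counts, and wider lists by counts with their leading called genes; Sdf2l1, Atf3 and Trib3 were added after their values were seen. The model was tested on simulated data. Replicate numbers were checked for pairing and mRNA and RISC of a heart share a number in their titles (median correlation of deviations 0.176, over 0.1 in 16 of 20 hearts). Positions are from the mm10 annotation, counted from 1. Counting error adds to the spread between hearts in a level based on few counts. The p-values set a group difference against a variance estimated from the hearts of all groups in the fit and partly shared across genes.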

Additional observations from a re-analysis of the deposited data

Results flagged for a closer look

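Of 132 sets of 7 TAC hearts (33 genes in 4 groups of hearts or libraries), 8 had 1 heart whose gap to the nearest other heart was a larger part of the range than Dixon's 95% critical value, and chance alone marks about 1 in 20 groups. In mRNA these were Hyou1 in ntg TAC replicate 3 at 46.3 CPM, below the others at 49.6 to 51.9 CPM, and Atf3 in ntg TAC replicate 4 at 20.9 CPM, above the others at 2.00 to 4.25 CPM. The same heart was the highest for Atf3 in RISC, at 7.53 CPM beside 0.582 to 2.24 CPM. The other RISC values were Hspa5 in ntg TAC replicate 3 at 76.3 CPM, Pdia3 in TG TAC replicate 4 at 40.5 CPM, Creld2 in TG TAC replicate 3 at 5.56 CPM, Derl1 in TG TAC replicate 4 at 31.6 CPM and Atf6 in TG TAC replicate 2 at 123 CPM. All 5 were above the rest of their group.

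The effect of the transgene on Herpud1 in RISC differed between TAC and sham hearts, with an interaction of 0.83 on the log2 scale (SE 0.18, adjusted p = 0.0236, edgeR's quasi-likelihood test). It was called under 22 of 26 alternatives and not under 4. Herpud1 in 3 of 3 TG sham hearts was below every ntg sham heart, whereas the TAC groups overlapped. The operation cannot be told apart here from whatever else separates the TAC and sham animals.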

How the results depend on the processing

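Of the called members, the difference of Herpud1 between TG and ntg sham hearts in mRNA (-1.26 to -0.93) and RISC, those of Herpud1, Chac1, Ddit3 and Ppp1r15a between TG and ntg TAC hearts in mRNA, and in RISC the differences between TAC and sham of Canx, Herpud1 and Hspa5 in ntg hearts and of Canx, Hspa5 and Hyou1 in TG hearts were called under every alternative run. Over all called members and alternatives 627 values kept their call, 119 lost it and 1 changed sign, Edem1 in TG against ntg TAC RISC, at 0.0226 with the length slope (adjusted p = 0.978). The number of members called in TG against ntg sham mRNA was 5 with DESeq2 (Dnajb11 and Sdf2l1 added, both higher) and 1 with the adipocyte covariate. Over all 14141 genes 2764 and 852 were called. In ntg TAC against sham mRNA it was 0 with the adipocyte covariate. With the length slope it was 0 for TG against ntg TAC, 3 for ntg TAC against sham and 0 for the interaction in RISC, and with only the 2 groups compared it was 1 for TG against ntg sham RISC. The mRNA interaction had 1 with DESeq2 and 1 with the replicate block, where 73 and 16 of 14141 genes were called. Leaving out 1 heart gave 2 to 6 and 4 to 6 (TG against ntg, sham and TAC), 5 to 10 and 3 to 7 (TAC against sham, ntg and TG) and 0 to 1 (interaction) in mRNA. In RISC it gave 1 to 2, 1 to 3, 5 to 10, 4 to 7 and 0 to 1, and 0 to 0 relative to mRNA. Over all genes it gave 1772 to 2592 and 3174 to 3553 calls (TG against ntg, sham and TAC) in mRNA. For TAC against sham it gave 1473 to 2446 in ntg and 1020 to 1953 in TG mRNA. In RISC the same 4 comparisons had 441 to 554, 1579 to 2053, 730 to 1446 and 510 to 1381 calls over all genes. The correlation of deviations between same-numbered hearts of the 2 genotypes had a median of -0.033 and -0.024 in sham and TAC mRNA and of 0.083 and 0.118 in RISC. It was over 0.1 for 0 of 3 sham pairs in either kind, 3 of 7 TAC pairs in mRNA and 4 of 7 in RISC, so the numbers were not taken as pairs. The planned replicate block within an operation cannot estimate TAC against sham and was not run there. A block by number across operations, chosen after seeing the data, left 3 members called in TG TAC against sham mRNA, where 1062 of 14141 genes were called. The causes of these changes were not tested, and low counts limit Chac1, Asns, Sdf2l1 and Derl3. Among all genes tested, the adipocyte covariate took the calls in mRNA from 2627 to 852 (TG against ntg sham) and from 2505 to 715 (ntg TAC against sham), and the length slope took RISC calls from 2050 to 181 (TG against ntg TAC) and from 1470 to 192 (ntg TAC against sham). In each of these comparisons the covariate did not overlap between the groups, so these fits cannot tell it apart from the group difference.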
